A study of Mus musculus with 11 samples.

Results

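The myosins and myosin-binding proteins of cardiac muscle were followed in mouse heart as the 10 genes Myh6, Myh7, Myh7b, Myl2, Myl3, Myl4, Myl7, Mybpc2, Mybpc3 and Mybphl. They were chosen by symbol, as the rows of the deposited expression table whose gene symbol is one of these names, and are 10 of its 23420 genes. Each name matched 1 row. Of the 10, 9 had a mean of at least 10 normalized counts over the 11 libraries and were tested with the 12976 genes that passed this filter. Myl7 did not pass it, and its values are given without a test.

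The libraries are of whole heart tissue from 4 groups: endothelial knockout of Cd36 through Tie2-cre (EC cd36 KO, n = 3), cardiomyocyte knockout of Cd36 through MHC-cre (MHC cd36 KO, n = 3), total knockout of Cd36 (Total cd36 ko, n = 3) and Control (n = 2). Cd36 encodes a fatty acid translocase of the plasma membrane, and the study was set up to follow what endothelial Cd36 does in the metabolism of lipids and glucose. All 11 libraries carry the same strain entry, a cross of Cd36 loxp mice, and the labels give neither age nor sex, nor how the total knockout was made. The labels name a Cre for the endothelial and the cardiomyocyte knockout and none for Control, so the effects of Cre and of the deletion cannot be told apart. Tie2-cre is also active in blood cell lineages. MHC-cre transgenes commonly carry the promoter of Myh6, itself one of the 10 genes, and the labels do not name the promoter used here. Nothing in the labels says that the libraries of a group are of separate animals, so the p-values measure the spread between libraries, which may be technical.

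Recovered whole reads ranged from 11157062 to 20105673 in 10 libraries, and EC cd36 KO replicate 1 had 2268403, where 1 read stands for 6.04 normalized counts. Cd36 stood at 30308, 27804 and 25758 normalized counts in EC cd36 KO, at 15792, 21610 and 21363 in MHC cd36 KO and at 18847, 23452 and 21266 in Total cd36 ko, against 44530 and 35425 in Control. Every knockout library was below both Control libraries, and reads of Cd36 remained in all of them. The deleted part of the gene is not given in the sources used here. The difference passed in MHC cd36 KO (log2 -1.03 ± 0.17 SE; limma, adjusted p = 0.00863; 0.124 without Control replicate 1 and 0.0862 in a fit to these 2 groups) and not in Total cd36 ko (-0.91, adjusted p = 0.0809) or EC cd36 KO (-0.51, adjusted p = 0.298). Numbers in the library labels fall in separate runs for MHC cd36 KO, for Total cd36 ko, and for EC cd36 KO together with Control, and what the numbers stand for is not stated.

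Cardiac muscle contracts as myosin heads of the thick filament pull on actin. A sarcomeric myosin is a pair of heavy chains, which hydrolyse ATP, each with an essential and a regulatory light chain on its neck, and myosin-binding protein C tethers the heads along the filament. The adult mouse ventricle runs mainly on the fast α heavy chain (Myh6), while the slow β heavy chain (Myh7) prevails before birth and returns in overloaded hearts. The ventricle uses the light chains Myl2 and Myl3, and the atria use Myl7 and Myl4.

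The heart muscle gene programme was present in all 11 libraries. Myh6 was the gene with the most normalized counts of all 23420 in 10 libraries and ranked 2 in the other one, and Myl2, Mybpc3 and Myl3 ranked between 6 and 18 in every library. Together the 10 genes took 5.21% ± 0.71 of all normalized counts in MHC cd36 KO, 6.32% ± 0.16 in EC cd36 KO and 5.95% ± 0.25 in Total cd36 ko (SD, n = 3 each), against 5.71% ± 0.11 in Control (SD, n = 2). The MHC cd36 KO libraries ranged from 4.403% to 5.71% and overlapped those of Control at 5.63% to 5.79%. Per kilobase of transcript, the order of mean levels in Control ran from Myl2 (210454 normalized counts per kb) through Myl3 (87434), Myh6 (70144), Mybpc3 (21288), Myh7 (1978), Myh7b (242), Mybpc2 (100.2), Myl4 (34.9) and Myl7 (11.1) to Mybphl (10.3). Only Myl7 and Mybphl, next to each other in this order, overlapped in their Control libraries. In MHC cd36 KO the order was the same down to Myh7 (9717 per kb). Mybpc2 (330.1 per kb) then stood above Myh7b (191), and Mybphl (172) above Myl4 (32.2) and Myl7 (9.88). Myl3 and Myh6 overlapped there, and so did Myh7b and Mybphl.

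Of the 9 genes tested, 3 were higher in MHC cd36 KO than in Control and 0 lower: Myh7, Mybpc2 and Mybphl (limma on log2(normalized count + 1), Benjamini-Hochberg adjusted p under 0.05). Of all genes tested 5.7% were called, 3.29% as higher. Mybphl was among the genes tested only through MHC cd36 KO: it averaged 219 normalized counts there and 7.54 over the 8 other libraries, which is under the filter, so its place in this count depends on the difference tested. With no filter it was called as well (adjusted p = 0.0179). In EC cd36 KO 0 of 9 passed against Control, where 0.316% of all genes did, and in Total cd36 ko 0 of 9 passed, where 0.0848% did. At an unadjusted p under 0.05 the members numbered 0 in EC cd36 KO and 1 in Total cd36 ko, which was Mybpc2. Of the 12976 genes tested, 1356 and 1052 had such a p-value in these contrasts. By edgeR 0 members were called in both contrasts, where 50 and 14 genes were called. By DESeq2 0 members were called in EC cd36 KO and 1 in Total cd36 ko, where 162 and 93 genes were called. Over the 9 members the median log2 difference from Control was -0.04 in MHC cd36 KO, -0.00 in EC cd36 KO and 0.12 in Total cd36 ko, beside medians of -0.00, -0.01 and 0.00 over all genes tested. The F test over the 4 groups called the same 3 members of 9, where 14.3% of all genes passed. The 3 MHC cd36 KO libraries lay above the 8 others for Myh7, Mybpc2 and Mybphl, which 9.05% of all genes tested did. They lay below the 8 others for Myh6 and Myl3, which 7.85% did. The plot of the members by library and the plot of differences from Control show these values.

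**Figure D1:**
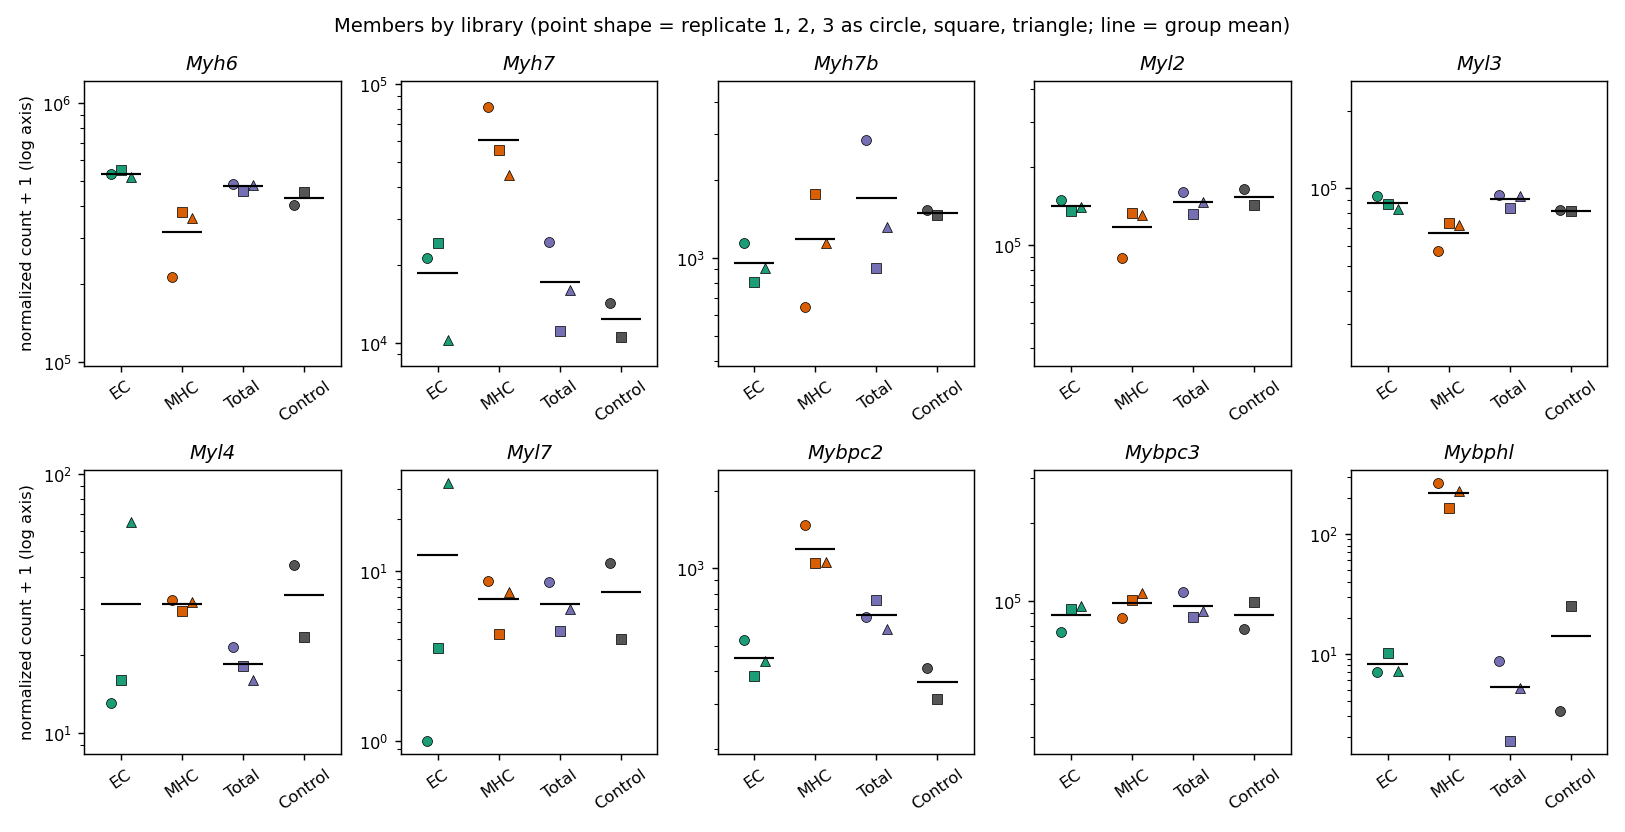
Normalized count + 1 (log axis) of the 10 genes in each library, by group, with replicates as circles, squares and triangles and the group mean as a line. MHC cd36 KO libraries stand above all others for Myh7 (44599 to 81559), Mybpc2 (1050 to 1471) and Mybphl (164 to 267), and below all others for Myh6 (212624 to 378362) and Myl3 (57040 to 73169).

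**Figure D2:**
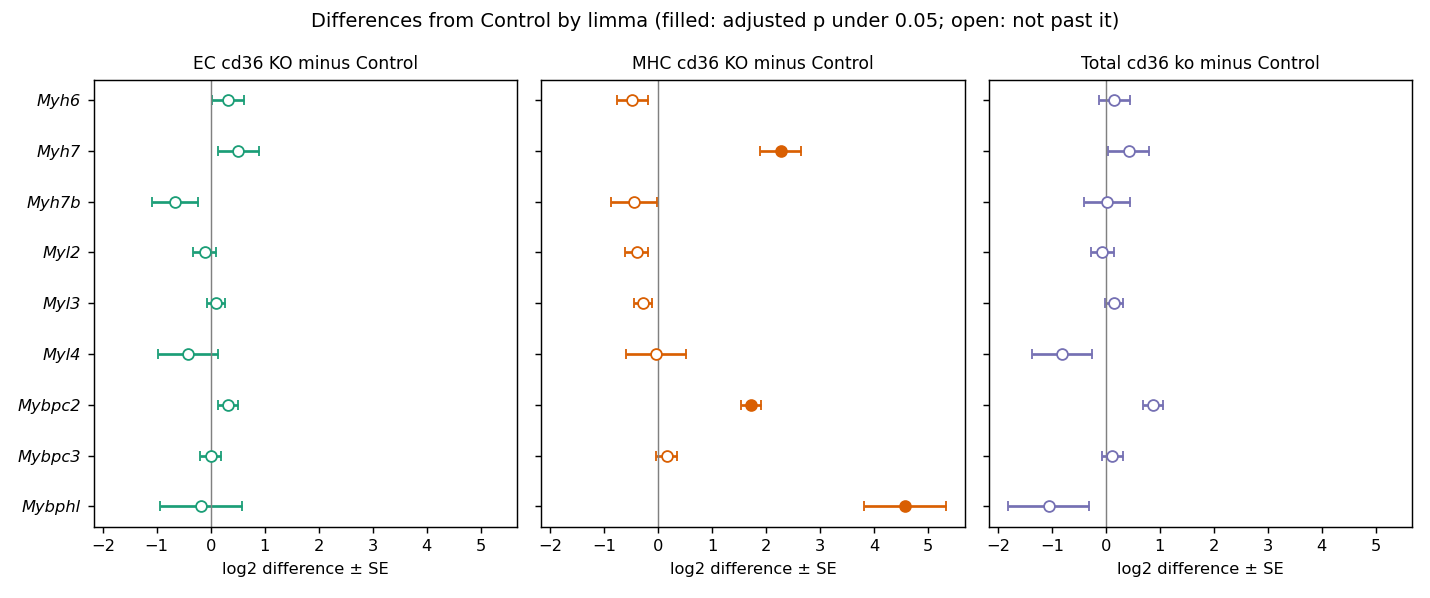
The log2 difference from Control with its SE for the 9 genes tested, in EC cd36 KO, MHC cd36 KO and Total cd36 ko. Filled points passed at an adjusted p under 0.05, and they are Myh7 (2.27), Mybpc2 (1.71) and Mybphl (4.57) in MHC cd36 KO.

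Myh7, the slow β heavy chain, was the heavy chain that rose. It stood at 81559, 55449 and 44599 normalized counts in MHC cd36 KO, at 21190, 24179 and 10256 in EC cd36 KO and at 24472, 11093 and 16004 in Total cd36 ko, against 14169 and 10482 in Control. All 3 MHC cd36 KO libraries were above every other library, and the other groups overlapped one another. The rise over Control was 2.27 ± 0.38 on the log2 scale (limma, adjusted p = 0.00971), a ratio of means of 4.91. Without Control replicate 1 the difference was 2.48 and no longer passed (adjusted p = 0.0852). Myh7 was also higher in MHC cd36 KO than in EC cd36 KO (1.75 ± 0.34, adjusted p = 0.00497) and than in Total cd36 ko (1.85 ± 0.34, adjusted p = 0.00565), each with any 1 library left out. It differed from Control by 0.51 ± 0.38 in EC cd36 KO (adjusted p = 0.679) and by 0.42 ± 0.38 in Total cd36 ko (adjusted p = 0.865), neither of which passed.

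Myh6, the fast α heavy chain and neighbour of Myh7 on chromosome 14, stood at 212624, 378362 and 358812 normalized counts in MHC cd36 KO, at 531105, 553308 and 516784 in EC cd36 KO and at 488224, 459147 and 483182 in Total cd36 ko, against 405256 and 452323 in Control. MHC cd36 KO replicate 1 was the lowest library and had the highest Myh7. The log2 difference between MHC cd36 KO and Control was -0.48 ± 0.29 and did not pass (limma, adjusted p = 0.383). Against EC cd36 KO the difference was -0.80 ± 0.26 and just passed (adjusted p = 0.0498), a call lost in 9 of 11 fits with 1 library left out (-0.95 to -0.53) and in the fit to these groups alone (adjusted p = 0.156). Against Total cd36 ko it was -0.64 ± 0.26 (adjusted p = 0.118), which passed by DESeq2 (adjusted p = 0.00517). Under quantile normalization the difference from EC cd36 KO was -0.29 (adjusted p = 0.369); this method gives genes of the same rank the same value, and Myh6 ranks first in most libraries.

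Among 4 members called between MHC cd36 KO and EC cd36 KO, 3 were higher (Myh7, Mybpc2 and Mybphl) and 1 lower (Myh6). Of all genes tested 19.1% were called there, 10.4% as higher and 8.72% as lower. Between MHC cd36 KO and Total cd36 ko 3 were called, all higher, where 16.4% of all genes were called and 8.2% were higher. Mybphl was among the genes tested only through MHC cd36 KO, so its place in both counts depends on the difference tested. Between Total cd36 ko and EC cd36 KO 0 of 9 passed by limma, beside 0.0385% of all genes. At an unadjusted p under 0.05 there was 1 member, beside 1355 of the 12976 genes tested. By edgeR and by DESeq2 0 members passed, where 4 and 70 genes were called.

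The 2 heavy chains were also set against each other within each library. The log2 ratio of Myh7 to Myh6 averaged -2.39 ± 0.88 in MHC cd36 KO, -4.94 ± 0.62 in EC cd36 KO and -4.87 ± 0.53 in Total cd36 ko (SD, n = 3 each), against -5.13 ± 0.42 in Control (SD, n = 2). Among the 4 groups it differed by an exact permutation test of the F statistic over 92400 assignments (p = 0.016, adjusted over 3 ratios p = 0.048). MHC cd36 KO exceeded Control by 2.75, and by 2.25 to 3.06 with 1 library left out, where 7 of 11 fits did not pass. Expressed per transcript length, Myh7 made up 27.3%, 12.6% and 10.9% of the 2 heavy chains in MHC cd36 KO replicates 1 to 3. The share was 3.26% ± 1.18 in EC cd36 KO and 3.38% ± 1.203 in Total cd36 ko (SD, n = 3 each), against 2.77% ± 0.77 in Control (SD, n = 2). The lowest MHC cd36 KO library was thus above all other libraries, of which the highest stood at 4.69%. Counting error gave these shares a Wilson 95% half-width of at most 0.141 percentage points, which covers reads and not animals.

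**Figure D3:**
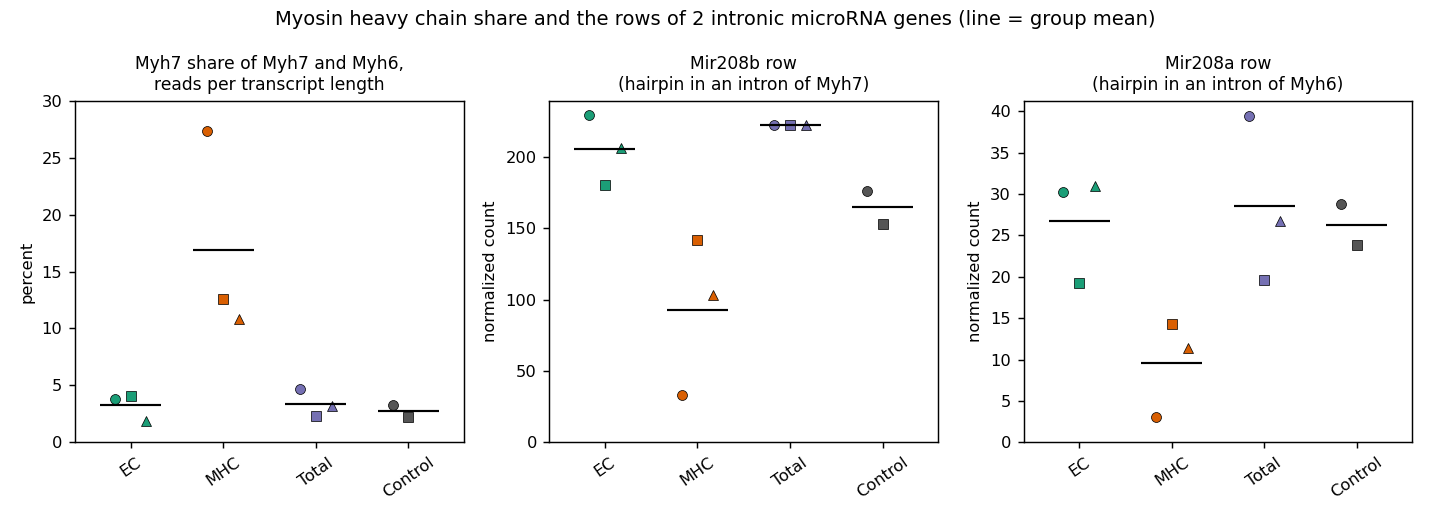
Left, the percentage of Myh7 among Myh7 and Myh6 reads per transcript length; middle and right, normalized counts of the Mir208b and Mir208a rows; each point is 1 library and the line is the group mean. The 3 MHC cd36 KO libraries hold the highest Myh7 shares (10.9% to 27.3%) and the lowest Mir208b (33.2 to 142) and Mir208a (3.09 to 14.2) values.

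In GENCODE M21 (GRCm38) Myh6 lies at chr14:54941921-54966927 and Myh7 at chr14:54970684-54994626, both on the minus strand. Mybpc2 lies at chr7:44501699-44524656 on the minus strand and Mybphl at chr3:108364911-108380057 on the plus strand. The 2 heavy chains are close in sequence. The coding sequences of Myh7 and Myh6 are 91.46% identical, and 22.2% of the 50-base stretches of the Myh7 transcript occur unchanged in that of Myh6. No other pair of the 10 genes shares a stretch of that length. How reads that match both were counted is not stated in the sources used here, so part of the Myh7 count may be split with Myh6.

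Cardiac heavy chain genes of the mouse carry microRNA genes in their introns, and these belong to one regulatory family: miR-208a in Myh6, miR-208b in Myh7 and miR-499 in Myh7b. In GENCODE M21 (GRCm38) the hairpins lie at chr14:54949060-54949142, chr14:54975700-54975776 and chr2:155622880-155622958, each inside an intron and on the strand of its host. Their mature sequences, from RefSeq (GRCm38.p6), are shown because the table has rows for their genes beside those of the heavy chains. Capitals mark the seed, bases 2 to 8.
miR-208a-3p: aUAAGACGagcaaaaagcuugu
miR-208b-3p: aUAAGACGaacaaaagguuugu
miR-499-5p: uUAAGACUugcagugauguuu
miR-208a-3p and miR-208b-3p share their seed and differ at 3 positions counted from the 5′ end (G10A, A16G and C18U, with the base of miR-208a-3p first). The seed of miR-499-5p differs from theirs in its last base.

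Mir208b, inside Myh7, was lower in MHC cd36 KO than in the other 2 knockouts. Its row stood at 33.2, 142 and 103 normalized counts in MHC cd36 KO, at 229.6, 181 and 206 in EC cd36 KO and at 223, 223 and 223 in Total cd36 ko, against 176 and 153 in Control. Every MHC cd36 KO library was below every other library, as for 7.85% of all genes tested, and the groups EC cd36 KO and Total cd36 ko overlapped. It was lower in MHC cd36 KO than in EC cd36 KO (log2 -1.36 ± 0.37; limma, adjusted p = 0.0245) and than in Total cd36 ko (-1.49 ± 0.37, adjusted p = 0.0196). Without MHC cd36 KO replicate 1 the differences were -0.75 and -0.88, still past the test (adjusted p = 0.0123 and 0.00835). These calls were lost in 2 and 3 of the 11 fits with 1 library left out, and in the fits to 2 groups (adjusted p = 0.0702 and 0.0547). Against Control the difference was -1.05 ± 0.42 and did not pass (adjusted p = 0.17); without MHC cd36 KO replicate 1 it was -0.44, and without replicate 2 it was -1.47 and passed (adjusted p = 0.0332).

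Mir208a stood at 3.09, 14.2 and 11.4 normalized counts in MHC cd36 KO, at 30.2, 19.2 and 30.9 in EC cd36 KO and at 39.5, 19.6 and 26.7 in Total cd36 ko, against 28.8 and 23.9 in Control. The counts are low, with 4 reads in MHC cd36 KO replicate 1. It was lower than in EC cd36 KO (-1.57 ± 0.46, adjusted p = 0.0323) and than in Total cd36 ko (-1.63 ± 0.46, adjusted p = 0.0306), and each call was lost in 3 of the 11 fits with 1 library left out, among them the fit without MHC cd36 KO replicate 1 (-0.98 and -1.05). Against Control the difference was -1.57 (adjusted p = 0.0985), and -0.98 without MHC cd36 KO replicate 1, while without replicate 2 it passed (-1.93, adjusted p = 0.0451). In the fits to 2 groups neither call held (adjusted p = 0.0814 and 0.0641). Mir499 had at most 3 reads in any library.

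The Mir208 rows hold reads of a total RNA library, not of a small RNA library, so reads of the host intron, the hairpin and an antisense transcript cannot be told apart. The library kit marks strand, but whether counting used it is not stated. An antisense RNA to Myh7, Mhrt, known in mouse as a long noncoding RNA of the heart, is in the table under its older symbol D830015G02Rik and was looked up after the Mir208 values had been seen. It lay at 201, 402 and 391 normalized counts in MHC cd36 KO, at 562, 426 and 549.9 in EC cd36 KO and at 614, 702 and 646 in Total cd36 ko, against 638 and 445 in Control. MHC cd36 KO was again below all 8 other libraries, as 7.85% of all genes tested were. The fall passed against Total cd36 ko (-1.04 ± 0.23; limma, adjusted p = 0.0116), while the difference was -0.68 from EC cd36 KO (adjusted p = 0.0558) and -0.75 from Control (adjusted p = 0.113). By DESeq2 both of these passed (adjusted p = 0.0393 and 0.0498). Without MHC cd36 KO replicate 1 they were -0.36 and -0.43 and did not pass (limma, adjusted p = 0.176 and 0.265). The difference from Total cd36 ko was then -0.72 and still passed (adjusted p = 0.0182). D830015G02Rik overlaps Myh7 on the opposite strand, and reads of the 2 genes cannot be told apart without the strand setting.

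Myh7b, the heavy chain gene whose intron holds miR-499, spread widely within MHC cd36 KO and Total cd36 ko. It stood at 646, 1760 and 1134 normalized counts in MHC cd36 KO, at 1142, 803 and 909 in EC cd36 KO and at 2846, 914 and 1316 in Total cd36 ko, against 1522 and 1456 in Control. The EC cd36 KO libraries were below both Control libraries, and the other knockout groups overlapped Control. The log2 difference from Control was -0.45 ± 0.42 in MHC cd36 KO, -0.66 ± 0.42 in EC cd36 KO and 0.02 ± 0.42 in Total cd36 ko, and none passed (limma, adjusted p = 0.602, 0.622 and 0.993).

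The ventricular light chains kept their place near the top of the table. Myl2, the regulatory light chain, stood at 89476, 132491 and 130709 normalized counts in MHC cd36 KO, at 149061, 136012 and 140621 in EC cd36 KO and at 161079, 131876 and 146865 in Total cd36 ko, against 164590 and 142252 in Control. The difference between MHC cd36 KO and Control was -0.40 ± 0.21 (limma, adjusted p = 0.311), and it was -0.22 without MHC cd36 KO replicate 1, the lowest library. Myl3, the essential light chain, stood at 57040, 73169 and 72028 in MHC cd36 KO, at 93274, 86823 and 83028 in EC cd36 KO and at 94118, 84260 and 93513 in Total cd36 ko, against 82380 and 81471 in Control. All MHC cd36 KO libraries were below the 8 others, by less than the test could call. The differences of MHC cd36 KO were -0.29 ± 0.17 from Control (adjusted p = 0.349), -0.39 ± 0.15 from EC cd36 KO (adjusted p = 0.0858) and -0.43 ± 0.15 from Total cd36 ko (adjusted p = 0.0645). The difference from Total cd36 ko passed by edgeR (adjusted p = 0.0371), by DESeq2 (0.00192) and with a filter of 50 (0.0497). The difference from EC cd36 KO passed by DESeq2 (adjusted p = 0.00601) and under quantile normalization (0.0369). With no filter neither passed (limma, adjusted p = 0.256 from Total cd36 ko and 0.278 from EC cd36 KO). Each library was also divided by its summed cardiomyocyte markers, a scaling added after seeing the data. The differences were then -0.04 from Control, -0.08 from EC cd36 KO and -0.06 from Total cd36 ko (limma, adjusted p = 0.821, 0.487 and 0.585).

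The atrial light chains had few reads. Myl7, the atrial regulatory chain, stood at 7.71, 3.24 and 6.54 normalized counts in MHC cd36 KO, at 0, 2.51 and 31.8 in EC cd36 KO and at 7.64, 3.41 and 5.005 in Total cd36 ko, against 10.1 and 2.98 in Control. The library at 0 was the shallow one, EC cd36 KO replicate 1, where 3 reads would be 18.1 normalized counts. Without the filter, its F test over the 4 groups gave an adjusted p of 0.978 (limma). Myl4, the atrial essential chain, stood at 31.6, 28.5 and 31.1 in MHC cd36 KO, at 12.1, 15.1 and 64.5 in EC cd36 KO and at 20.4, 17.1 and 15.0 in Total cd36 ko, against 43.5 and 22.4 in Control. EC cd36 KO replicate 3 was the highest library for both atrial chains. Myl4 differed from Control by -0.04 ± 0.55 in MHC cd36 KO, -0.43 ± 0.55 in EC cd36 KO and -0.81 ± 0.55 in Total cd36 ko, none past the test (limma, adjusted p = 0.981, 0.846 and 0.791). MHC cd36 KO differed by 0.39 from EC cd36 KO (adjusted p = 0.619) and by 0.77 from Total cd36 ko (adjusted p = 0.322). Without EC cd36 KO replicate 3 the difference from EC cd36 KO was 1.11 and passed (adjusted p = 0.044). The log2 ratio of MHC cd36 KO over Control was 0.38 for Myl7 to Myl2 and 0.25 for Myl4 to Myl3. By the exact permutation test among 4 groups neither ratio passed (adjusted over 3 ratios p = 0.917 and 0.498). Myl4 made up at most 0.0772% and Myl7 at most 0.028% of the chain and its ventricular partner per transcript length.

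Mybphl, which encodes myosin-binding protein H-like, a shortened relative of myosin-binding protein C found mainly in atria, changed most among the members. It stood at 267, 164 and 227 normalized counts in MHC cd36 KO, at 6.04, 9.20 and 6.19 in EC cd36 KO and at 7.64, 0.853 and 4.17 in Total cd36 ko, against 2.33 and 23.9 in Control. The lowest MHC cd36 KO library was well above every other library, and the 2 Control libraries were far apart. As the filter was passed through MHC cd36 KO alone, the adjusted p-values with no filter stand beside those with it. The log2 difference was 4.57 ± 0.75 from Control (limma, adjusted p = 0.00882; 0.0179 with no filter), 4.75 ± 0.67 from EC cd36 KO (adjusted p = 0.00102; 0.00223 with no filter) and 5.63 ± 0.67 from Total cd36 ko (adjusted p = 7.39e-04; 0.00168 with no filter). The size against Control rested on which Control library was used: without Control replicate 1 it was 3.12 and no longer passed (adjusted p = 0.113), and without Control replicate 2 it was 6.02 (adjusted p = 0.00295). The calls against EC cd36 KO and Total cd36 ko held with any 1 library left out.

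The labels say heart and do not say whether atria were included, so the atrial marker list is given beside Mybphl. Their part in the rise of Mybphl was not tested. Of the 14 genes 11 were tested. Between MHC cd36 KO and Control 3 rose: Nppa, an atrial natriuretic peptide that ventricles also make under load, Dkk3 and Pam. Of all genes tested 5.7% were called there, 3.29% as higher. Kcnj3, a channel subunit of atrial myocytes, fell (-0.70 ± 0.18; limma, adjusted p = 0.0424), and the median over the list was -0.03. Nppa stood at 215750, 105984 and 116782 normalized counts in MHC cd36 KO, at 5317, 6786 and 8120 in EC cd36 KO and at 17338, 12343 and 6797 in Total cd36 ko, against 6038 and 10192 in Control. The summed list without Nppa ranged from 21611 to 26159 in MHC cd36 KO, against 15933 to 18648 in Control. Most of this sum was Pam alone, at 18387 to 22778 in MHC cd36 KO and 12739 to 18181 in the 8 other libraries. Sln and Bmp10, also on the list, were at or near 0. Sln had 1 read in all 3 MHC cd36 KO libraries together, against 8 in the 2 Control libraries. Bmp10 had 5 reads in MHC cd36 KO, against 1 in Control. Myl7 and Myl4 overlapped between the groups. In EC cd36 KO replicate 3, Sln was highest at 12.4, beside the highest Myl7 and Myl4. The plot of Mybphl beside atrial genes shows these rows.

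**Figure D4:**
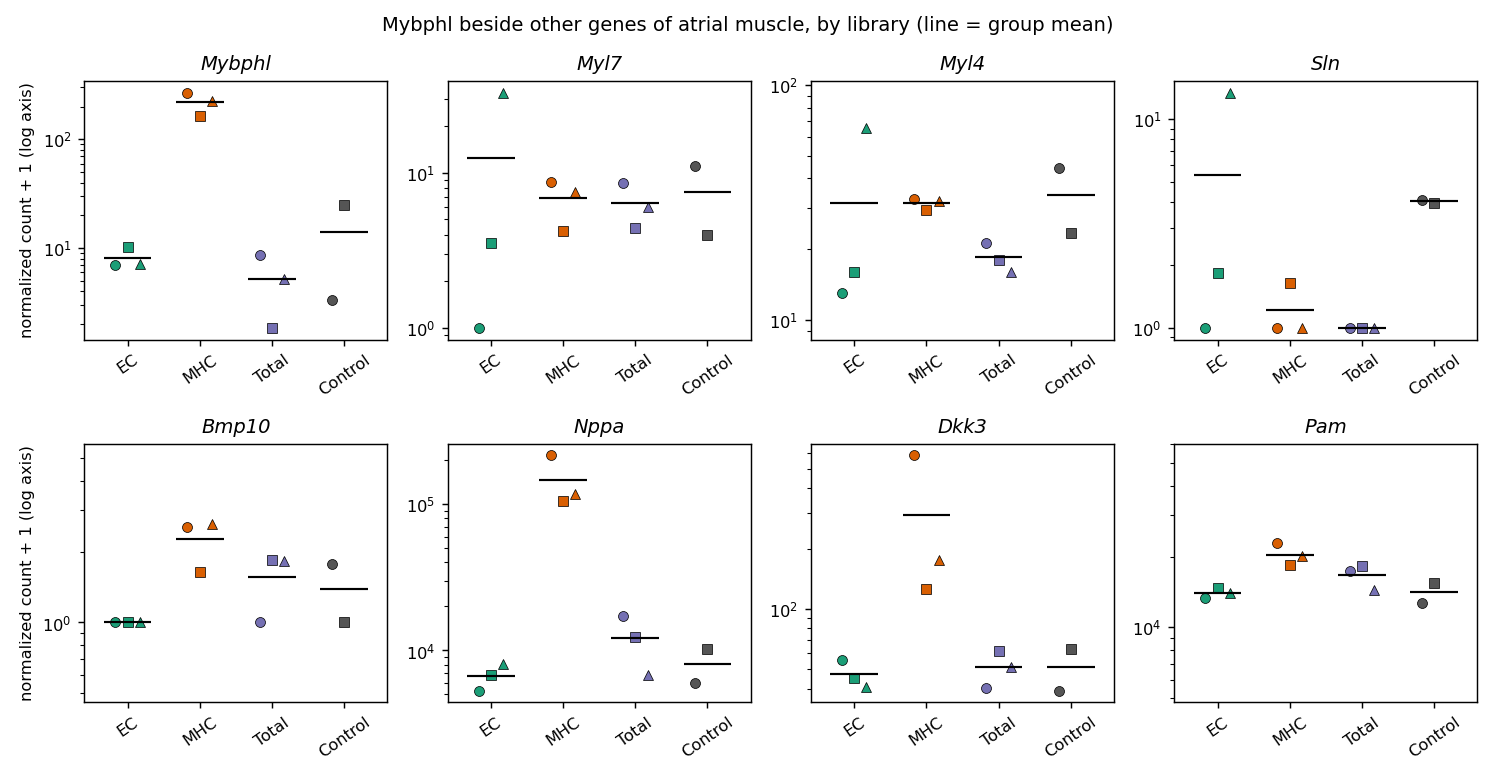
Normalized count + 1 (log axis) of Mybphl and 7 other genes of atrial muscle in each library, with the group mean as a line. Mybphl, Nppa, Dkk3 and, narrowly, Pam stand above all other libraries in MHC cd36 KO, while Myl7, Myl4, Sln and Bmp10 do not.

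Mybpc2, the fast skeletal myosin-binding protein C, rose in every fit run. It stood at 1471, 1050 and 1055 normalized counts in MHC cd36 KO, at 526, 384 and 438 in EC cd36 KO and at 648, 753 and 579.7 in Total cd36 ko, against 412 and 312 in Control. All MHC cd36 KO libraries were above all of Total cd36 ko, and these were above all of EC cd36 KO and Control, which overlapped. The log2 difference of MHC cd36 KO was 1.71 ± 0.19 from Control (limma, adjusted p = 0.00129), 1.40 ± 0.17 from EC cd36 KO (adjusted p = 4.42e-04) and 0.84 ± 0.17 from Total cd36 ko (adjusted p = 0.00724). All 3 passed with any 1 library left out, at 1.51 to 1.91 for the difference from Control. Between Total cd36 ko and Control the difference was 0.87 ± 0.19 and did not pass (adjusted p = 0.133), and it passed by DESeq2 (adjusted p = 0.00355). It also just passed by limma without replicate 1 of each of the 3 knockout groups (0.88, adjusted p = 0.0499). This difference was not called by edgeR, nor in any fit with 1 library left out (0.67 to 1.07). In EC cd36 KO it was 0.31 ± 0.19 (adjusted p = 0.593).

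Mybpc2 is known from fast skeletal muscle, so markers of that tissue are given beside it. Of 13 skeletal muscle markers 4 were abundant enough to test and 0 passed between MHC cd36 KO and Control (0 at an unadjusted p under 0.05), with a median of 0.18. Their summed level was 324 to 456 normalized counts in MHC cd36 KO, against 372 to 561 in Control.

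Mybpc3, the cardiac myosin-binding protein C and by far the most abundant of the 3, stood at 86217, 101020 and 108065 normalized counts in MHC cd36 KO, at 76180, 93176 and 95874 in EC cd36 KO and at 108576, 87185 and 91654 in Total cd36 ko, against 77884 and 99362 in Control. All groups overlapped. Its log2 difference from Control was 0.16 ± 0.19 in MHC cd36 KO, -0.00 ± 0.19 in EC cd36 KO and 0.12 ± 0.19 in Total cd36 ko (limma, adjusted p = 0.707, 1 and 0.944).

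**Figure D5:**
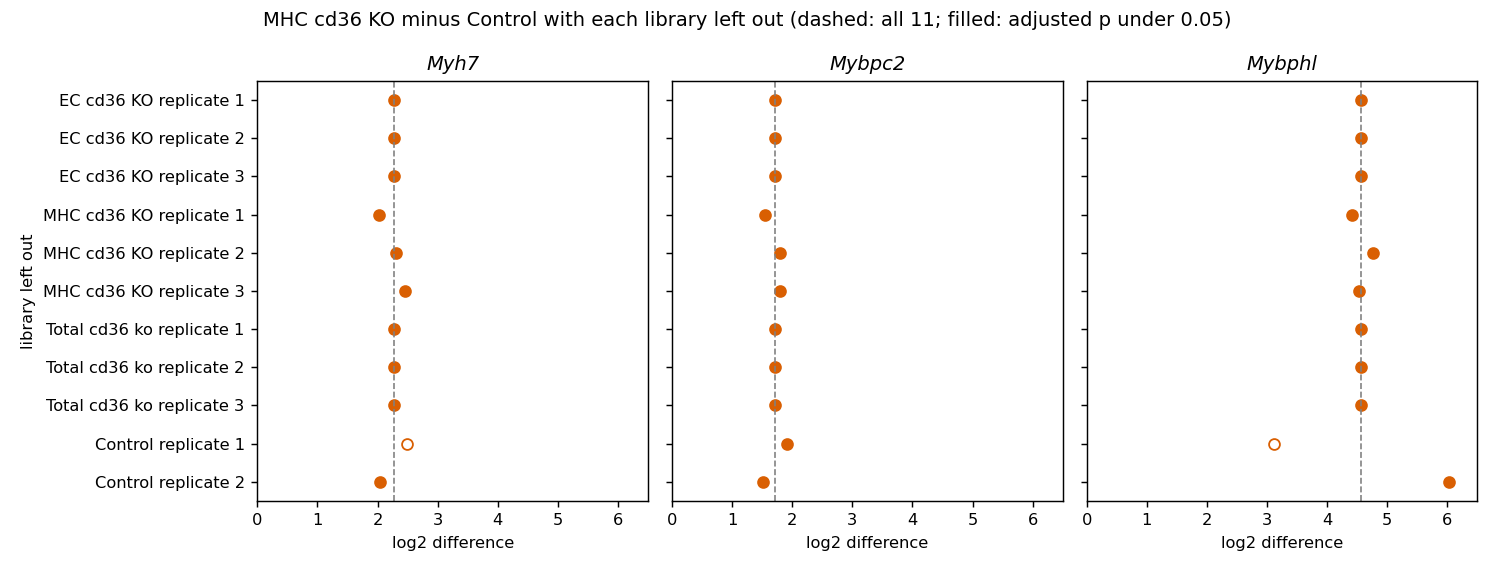
The log2 difference between MHC cd36 KO and Control for Myh7, Mybpc2 and Mybphl when any single library of the 11 was dropped from the fit; filled points passed at an adjusted p under 0.05 and the dashed line is the value from all 11. Mybpc2 passed in all 11 fits (1.51 to 1.91), and Myh7 (2.48) and Mybphl (3.12) did not pass without Control replicate 1.

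Promoters are shown for the 3 genes called higher in MHC cd36 KO than in Control. Each is the 250 bases before the start site in RefSeq (GRCm38.p6), taken at the most upstream start, read 5′ to 3′ on the strand of the gene: chr14:54994627-54994876 (minus) for Myh7, chr7:44524670-44524919 (minus) for Mybpc2 and chr3:108364661-108364910 (plus) for Mybphl. Capitals mark the match to a motif searched on both strands, which is the TEAD factor motif CATTCC in Myh7 and Mybpc2, found there on the opposite strand, and the motif AGATAA of GATA factors in Mybphl.
Myh7: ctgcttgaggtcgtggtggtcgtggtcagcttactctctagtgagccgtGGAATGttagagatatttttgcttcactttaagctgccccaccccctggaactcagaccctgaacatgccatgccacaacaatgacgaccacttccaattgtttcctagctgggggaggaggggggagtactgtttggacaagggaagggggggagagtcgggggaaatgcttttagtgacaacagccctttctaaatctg
Mybpc2: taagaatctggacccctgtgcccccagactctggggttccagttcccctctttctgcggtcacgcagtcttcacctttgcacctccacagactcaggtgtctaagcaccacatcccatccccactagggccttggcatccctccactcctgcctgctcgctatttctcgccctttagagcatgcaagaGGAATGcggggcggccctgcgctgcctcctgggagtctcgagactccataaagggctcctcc
Mybphl: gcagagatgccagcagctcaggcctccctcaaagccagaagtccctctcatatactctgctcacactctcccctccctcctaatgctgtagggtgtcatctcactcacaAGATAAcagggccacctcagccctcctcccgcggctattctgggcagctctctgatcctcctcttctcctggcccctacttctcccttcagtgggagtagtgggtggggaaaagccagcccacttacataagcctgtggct
No 1 motif was found in all 3. Over the 10 genes, CATTCC was in 5 windows (Myh6, Myh7, Myl3, Myl7 and Mybpc2) and AGATAA in 3 (Myh7b, Myl2 and Mybphl). The CArG box was in 2 and the MEF2 box in 1. In this order, 12.6%, 9.99%, 1.47% and 2.92% of 32841 promoter windows of that length hold them. CATTCC was thus also found in Myh6 and Myl3, which were lower in all MHC cd36 KO libraries than in the 8 others. The motifs do not overlap in the windows shown. Myh7 has a further start 77 bases downstream, and the window before that start holds none of the 4 motifs. Myl2 has starts at chr5:122092724 and chr5:122093189, and only the window before the first holds AGATAA. Both starts lie upstream of the GENCODE M21 span of Myl2, chr5:122100951-122113472. A match is a stretch of letters and not a bound site.

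Genes most like each called member were found by the root mean square difference of centred log2 values over the 11 libraries, where a smaller value means a closer pattern. The 3 nearest to Myh6 were Aldh4a1, Ivd and Bckdha (0.10 to 0.11), enzymes of mitochondrial amino acid breakdown. Their log2 differences between MHC cd36 KO and Control were -0.52, -0.59 and -0.68. As these genes were chosen for their likeness to a member over the same libraries, their differences here and below are a description, with no test. Nearest to Myh7 were Ncam1, a cell adhesion molecule, Pdzd7 and Mmp23, a matrix metalloproteinase (0.43 to 0.48). Their log2 differences between MHC cd36 KO and Control were 1.39, 1.61 and 1.76. Fcna, a ficolin of macrophages, Ltc4s, which makes leukotriene C4, and Podn, a matrix proteoglycan, were nearest to Mybpc2 (0.28 to 0.29), with log2 differences of 1.07, 1.07 and 1.37. The genes closest to Mybphl were Nppa (1.08), Timp1, an inhibitor of matrix metalloproteinases (1.14), and Gm14085 (1.17). The measure grows with the spread of the member itself, whose own root mean square was 2.42 for Mybphl, 0.97 for Myh7, 0.67 for Mybpc2 and 0.37 for Myh6, so it ranks genes within a member and not between members. Gm14085 averaged 37.2 ± 3.88 normalized counts in MHC cd36 KO, and it had 1 read in all of Total cd36 ko, 1 in Control and 0 in EC cd36 KO. Like Mybphl it passed the filter only through MHC cd36 KO, so its place among the genes compared depends on that group.

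The wider thick filament was described through lists. Between MHC cd36 KO and Control 0 genes passed among 2 tested other sarcomeric myosins of 12 (limma; 0 at an unadjusted p under 0.05), 8 non-sarcomeric myosins (2), 7 light chain kinases and phosphatase subunits (1) and 13 myosin chaperones and thick filament partners (4). Of the 12976 genes tested, 2729 had an unadjusted p under 0.05 in this contrast. By median the lists stood at -0.07, 0.22, -0.05 and -0.04. Among the other sarcomeric myosins, the embryonic heavy chain Myh3 and the perinatal Myh8 averaged 1.18 ± 0.66 and 1.90 ± 1.69 normalized counts in MHC cd36 KO, and Mybph was at 0 in every library. Mylk3, the cardiac kinase of the regulatory light chain, differed from Control by -0.12 ± 0.12 in MHC cd36 KO (adjusted p = 0.642). Against EC cd36 KO, 5 of the 13 thick filament partners passed in MHC cd36 KO, beside 19.1% of all genes: Obsl1 (0.54), Trim55 (0.40) and Myom3 were higher, and Cmya5 (-0.78) and the ubiquitin ligase gene Trim63 (-0.44) lower. Compared with Total cd36 ko, 2 of the 13 were higher (Hsp90aa1 and Obsl1) and 2 lower (Smyd1 and Cmya5), where 16.4% of all genes were called.

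Between MHC cd36 KO and Control, where 5.7% of all genes were called, thin filament genes gave 1 call of 12. The gene was Acta1, the skeletal α-actin that hearts express before birth. It stood at 12882, 8661 and 10896 normalized counts in MHC cd36 KO, at 7045, 7191 and 4055 in EC cd36 KO and at 11255, 30215 and 11255 in Total cd36 ko, against 2217 and 3777 in Control. All knockout libraries were above both Control libraries. It rose in MHC cd36 KO (1.88 ± 0.40; limma, adjusted p = 0.0219) and in Total cd36 ko (2.43 ± 0.40, adjusted p = 0.0497), and was 1.03 ± 0.40 in EC cd36 KO (adjusted p = 0.385). Regulators of cardiac myosin genes gave 0 of 22 between MHC cd36 KO and Control (2 at an unadjusted p under 0.05; median -0.05). Of the 22, 0 were higher and 2 lower (Myocd and Tead1) in MHC cd36 KO than in EC cd36 KO, where 19.1% of all genes were called. Against Total cd36 ko 1 was higher (Tbx5) and 1 lower (Tead1), where 16.4% were called.

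Markers of macrophages and fibroblasts moved with the members in MHC cd36 KO, and the part of other cell types in the results above was not tested. In RNA of whole tissue, fewer cells of a type and less RNA per cell cannot be told apart. The counts below stand beside 5.7% of all genes tested called between MHC cd36 KO and Control, 3.29% as higher. Cardiomyocyte markers summed to 804183 to 1014625 normalized counts in MHC cd36 KO, against 1070279 to 1148281 in Control, and 0 of 12 passed (limma; 4 at an unadjusted p under 0.05; median -0.28). Dividing each library by this sum, a scaling added after seeing the data, moved the median difference of all genes from Control by 0.25 towards MHC cd36 KO, which favours calls of genes that are higher there. Under it Mybpc3 was also called higher in MHC cd36 KO than in EC cd36 KO (0.46; limma, adjusted p = 0.0103) and than in Total cd36 ko (0.41, adjusted p = 0.0156). Macrophage markers rose in 7 of 7 tested (median 1.27), among them Csf1r (1.09), Mrc1 (1.17), C1qa (1.39) and C1qb (1.34), with sums of 7540 to 14324 in MHC cd36 KO, against 4068 to 4357 in Control. Fibroblast markers rose in 4 of 8 (median 1.35): Postn (3.54), Col3a1 (2.29), Col1a1 (1.80) and Pi16 (1.73), with sums of 27530 to 83290 in MHC cd36 KO, against 17247 to 17288 in Control. For smooth muscle the count was 1 of 8 (Acta2, 1.49) and for the ventricular list 1 of 9 (Ankrd1, 1.86), while endothelial markers gave 0 of 8 (1 at an unadjusted p under 0.05) and pacemaker and conduction markers 0 of 7 (2). Endothelial sums were 14081 to 14691 in MHC cd36 KO, against 16402 to 16993 in Control. Between EC cd36 KO and Control 0 genes of these lists passed (limma), with 0 to 5 a list at an unadjusted p under 0.05. In Total cd36 ko the one call was Acta1.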

How the data were processed

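Heart RNA (400 ng of total RNA per library) was sequenced after ribosomal RNA removal with a stranded kit, per the labels. The submitters' processing notes name TopHat2, HTSeq 0.8.0, DESeq2 (given as 3.5) and the mm10 build. The deposited signal is whole-read counts that the authors divided by 1 factor per library. All 257620 values lay within 0.000357 of a whole read, so reads were recovered. Columns of per-sample values not used numbered 0.

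Log2(value + 1) was fitted with limma 3.58.1 (R 4.3.3) in 1 model of 4 groups with a trended prior, for genes with a mean of at least 10, and p-values were adjusted by Benjamini-Hochberg over 12976 genes. The ratios were tested by exact permutation, two-sided through F. The scripts were tested on simulated counts, drawn with the same assumed dispersion for every gene. Of 100 genes changed by 1 on the log2 scale, 21 were called between MHC cd36 KO and Control. Between EC cd36 KO or Total cd36 ko and Control 32 were. Of 100 changed by 2, 93, 98 and 94 were called in MHC cd36 KO, EC cd36 KO and Total cd36 ko. A gene that did not pass may thus still differ by 1. These rates do not hold for genes that spread more than was assumed. edgeR 4.0.16 on recovered reads called 1007 genes between MHC cd36 KO and Control, DESeq2 1.42.0 called 1276 and limma 739. The further alternatives were other pseudocounts, filters, scalings, fits to 2 groups and each library left out.

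Members and lists were chosen with earlier results of these data known. Genes named beyond the members were Cd36, the 3 nearest to each called member, up to 4 per list with the lowest F test p among those called, and the microRNA and antisense rows of the heavy chain genes. A few further list genes were named after their values were seen. Lengths came from the GENCODE M21 transcript with the longest coding sequence.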

Additional observations from a re-analysis of the deposited data

How the results depend on the processing

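Myh7, Mybpc2 and Mybphl were called between MHC cd36 KO and Control under every alternative run except without Control replicate 1, where Mybpc2 alone was. No paired analysis was possible because the label numbers differ between all libraries, so none ties libraries across groups. Left-out libraries gave these ranges of genes called: 5 to 84 for EC cd36 KO minus Control, 26 to 999 for MHC cd36 KO minus Control, 1 to 33 for Total cd36 ko minus Control, 1455 to 2582 for MHC cd36 KO minus EC cd36 KO, 1036 to 2272 for MHC cd36 KO minus Total cd36 ko, 0 to 28 for Total cd36 ko minus EC cd36 KO and 940 to 2084 for the F test; the cause was not tested. The full fits gave 41, 739, 11, 2479, 2128, 5 and 1853. Members called ranged from 1 to 3 for MHC cd36 KO minus Control.

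With no filter the counts were 22 (EC cd36 KO minus Control), 7 (Total cd36 ko minus Control) and 0 (Total cd36 ko minus EC cd36 KO), and 3 for the last with a filter of 50. Library totals gave 26 for Total cd36 ko minus Control. Fits to 2 groups gave 61 (MHC cd36 KO minus Control) and 14 (Total cd36 ko minus EC cd36 KO). DESeq2 gave 162, 1276 and 93 against Control for EC cd36 KO, MHC cd36 KO and Total cd36 ko, and 70 for Total cd36 ko minus EC cd36 KO; members called were 1 for Total cd36 ko minus Control and 5 for MHC cd36 KO minus Total cd36 ko. Without replicate 1 of the 3 knockout groups, the counts were 64, 72, 1288, 917, 17 and 977 for EC cd36 KO minus Control, Total cd36 ko minus Control, MHC cd36 KO minus EC cd36 KO, MHC cd36 KO minus Total cd36 ko, Total cd36 ko minus EC cd36 KO and the F test, with 1 member called for Total cd36 ko minus Control. Scaling by cardiomyocyte markers, chosen after seeing the data, gave 27, 26, 4192, 5223 and 3464 for the same results without Total cd36 ko minus EC cd36 KO; of the 4192, 3884 were higher and 308 lower, and of the 5223, 5008 and 215, beside 1348 and 1131, and 1064 and 1064, without this scaling. Under it 959 genes were higher and 125 lower for MHC cd36 KO minus Control, beside 427 and 312. By library totals the genes higher and lower were 568 and 237 for MHC cd36 KO minus Control, 2088 and 640 for MHC cd36 KO minus EC cd36 KO and 1750 and 547 for MHC cd36 KO minus Total cd36 ko.

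The ratio of Myh7 to Myh6 was 2.25 without the 3 replicates 1 and did not pass (exact permutation test, adjusted p = 0.429), and 2.25 to 3.06 with 1 library left out. Myl7 to Myl2 was -0.017 without the 3, and -0.26 to 1.01 with 1 left out; Myl4 to Myl3 was -0.21 to 0.71 and passed without EC cd36 KO replicate 3 (adjusted p = 0.0183). Differences that turned and were never called were Mybphl in EC cd36 KO minus Control (0.062 under quantile normalization, -1.63 to 1.27 with 1 left out), Mybphl in Total cd36 ko minus Control (-2.51 to 0.39), Myl4 in MHC cd36 KO minus Control (0.043 by library totals, 0.21 by cardiomyocyte markers, -0.51 to 0.42), Mybpc3 in MHC cd36 KO minus Control (-0.020 to 0.33) and Myh7 in Total cd36 ko minus EC cd36 KO (-0.47 to 0.19). Among single genes, 1089 comparisons of an alternative with the value reported kept direction and call, 61 lost a call, 16 gained one and 11 changed sign. Depth limits Myl7 and Mybphl most, at 1 to 36 reads a library outside MHC cd36 KO where any were found.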
